A study of Sordaria macrospora with 16 samples.

Results

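Histone H3 in Δasf1 (labelled delta-asf1) and in the wild type of the filamentous ascomycete *Sordaria macrospora* is described here from 4 lists of broad peaks, 2 biologically independent replicates for each strain. A peak is a stretch of chromosome in which sequenced fragments recovered with an H3 antibody were enriched, so that a list of peaks marks nucleosome-rich regions. All peaks of the 4 H3 lists were used, and cover, width, spacing and overlap were taken from their chromosome, start and end. The strength values that the lists also give per peak served to describe the lists, to rank peaks and to set alternative lists. The 4 lists held 23651 of the 45528 peaks in the 8 lists of the series, whose other 4 lists are of H3 trimethylated at lysine 27 (H3K27me3). The 16 samples also included 8 input samples, which were not analysed here.

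Δasf1 lacks *asf1*, which was replaced by a hygromycin resistance gene, and the mutant is sterile. Mycelium of Δasf1 was grown for 3 days and mycelium of the wild type for 2 days, both at 27°C in liquid complete medium in constant light, because the mutant grows more slowly. Strain and length of culture therefore cannot be told apart. Chromatin of both strains was fixed with 1% formaldehyde and cut with micrococcal nuclease at 230 U per ml for 105 min before the H3 antibody was added. The study describes a duplicated segment on the left part of chromosome 2 in Δasf1, so the mutant differs from the wild type in DNA content as well as in *asf1*.

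H3 is a core histone. With H4 it forms the center of the nucleosome, the particle around which DNA is wrapped. ASF1 is a conserved chaperone that binds H3 and H4 and hands them to the factors that build nucleosomes, among them chromatin assembly factor 1 during DNA replication and the HIR complex outside it. In many eukaryotes nucleosomes are depleted at promoters and tRNA genes and regularly spaced over gene bodies.

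The lists were not cut at the same strength. The lowest −log10 q of a peak was 2.05 in Δasf1 replicate 1 and 2.05 in wild-type replicate 1, but 1.02 in Δasf1 replicate 2 and 1.03 in wild-type replicate 2. Here q is the peak caller's adjusted p-value. Strains are therefore compared within a replicate number first. Enrichment was low throughout, with a median fold enrichment of 1.39 and 1.35 in Δasf1 replicates 1 and 2 and of 1.41 and 1.28 in wild-type replicates 1 and 2. The highest peak of any of the 4 lists reached 1.94-fold. The lists hold no read counts, so the depth behind each peak is unknown.

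The number and extent of H3 peaks did not differ between the strains in a repeatable way. Δasf1 had 6358 peaks in replicate 1 and 4401 in replicate 2, against 6367 and 6525 in the wild type. In Δasf1 the peaks covered 9.60 Mb (24.3% of the 39.4 Mb genome) in replicate 1 and 5.81 Mb (14.7%) in replicate 2. In the wild type they covered 8.22 Mb (20.8%) and 12.3 Mb (31.2%). The 2 Δasf1 values of covered length lay on both sides of the lower wild-type value. Within replicate number 1, Δasf1 over wild type was 0.999 for peak number and 1.17 for covered length, and within replicate number 2 it was 0.674 and 0.473. Thus the covered length was higher in Δasf1 in one pair and lower in the other. The spread between replicates of a strain was as large as the difference between strains: the covered length averaged 7.70 ± 2.68 Mb in Δasf1 and 10.3 ± 2.88 Mb in the wild type (SD, n = 2 each; exact permutation p = 0.667, two-sided). The smallest p that an exact permutation test can give with 2 libraries against 2 is 0.333, so no single value compared by this test could reach 0.05. Peak number gave that smallest p (exact permutation p = 0.333), although the strains were almost level in replicate number 1. Adjusted over the 5 quantities compared this way (peak number, covered length, median width, median gap and number of wide peaks), the exact permutation p was 1 for median width and 0.833 for each of the others (Benjamini-Hochberg).

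**Figure D1:**
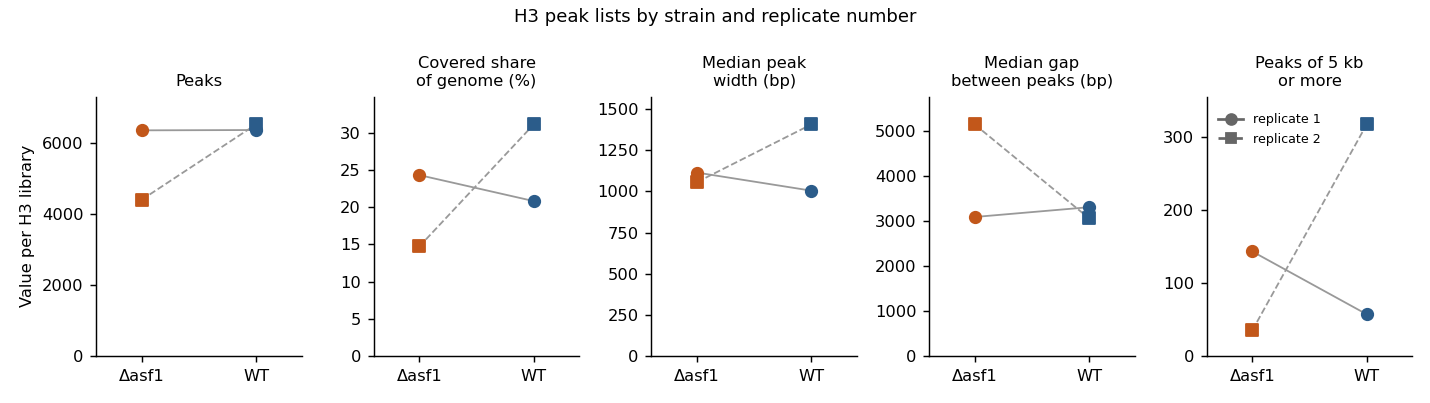
Peak number, covered share of the genome in percent, median peak width in bp, median gap in bp and number of peaks of 5 kb or more for each H3 library, with Δasf1 left of the wild type. Circles and solid lines are replicate 1, squares and dashed lines replicate 2; the lines cross for covered share (24.3% and 14.7% in Δasf1, 20.8% and 31.2% in the wild type) and for wide peaks.

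Peak width followed the same pattern. The median H3 peak was 1115 bp wide in Δasf1 replicate 1 and 1057 bp in replicate 2, against 1005 bp and 1408 bp in the wild type. The ratio of medians was 1.11 within replicate number 1 and 0.751 within replicate number 2 (exact permutation p = 1, two-sided). The narrowest peaks of the 4 lists were 238 to 292 bp wide. Peaks under 1 kb made up 44.1% and 46.6% of the Δasf1 lists and 49.7% and 33.1% of the wild-type lists. The lists differed most in their wide peaks. Peaks of 5 kb or more numbered 143 in Δasf1 replicate 1 and 35 in replicate 2, against 57 and 317 in the wild type. They held 10.1% and 4.61% of the peak length in Δasf1, against 4.88% and 17.3% in the wild type. Within replicate number 1 Δasf1 had 2.51 times as many wide peaks as the wild type, and within replicate number 2 it had 0.110 times as many (exact permutation p = 0.667 over the 4 libraries). One library decided the direction of the group ratio: it was 0.476 with all 4 libraries and 1.56 without wild-type replicate 2.

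Median spacing was similar in 3 of the lists, although gaps varied widely within each list. The median gap between neighboring peaks was 3091 bp in Δasf1 replicate 1 and 5151 bp in Δasf1 replicate 2, against 3309 bp and 3062 bp in the wild type. Δasf1 replicate 2 therefore stood apart, with 296 gaps of more than 20 kb, where the other Δasf1 list had 100 and the wild-type lists had 103 and 35. Gaps under 2 kb made up 31.3% and 18.0% in Δasf1, against 29.9% and 30.6% in the wild type. The shortest gap of each list was 1001 bp and 1106 bp in Δasf1, against 953 bp and 1172 bp in the wild type. No 2 peaks of a list came closer than that, so spacing on the scale of single nucleosomes cannot be read from these lists. The gap ratio was 0.934 within replicate number 1 and 1.68 within replicate number 2 (exact permutation p = 0.667). Without Δasf1 replicate 2 the group ratio was 0.970 in place of 1.29.

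**Figure D2:**
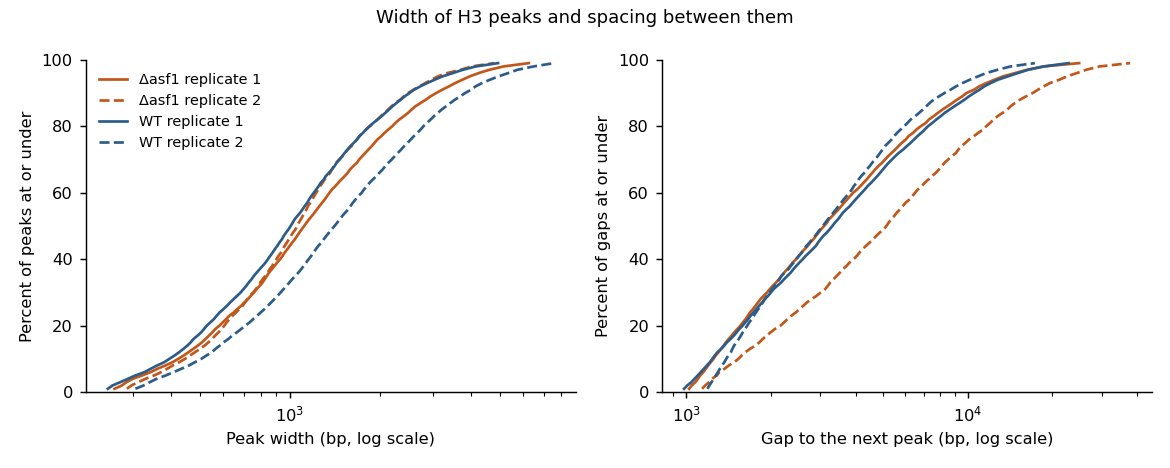
Cumulative percent of peaks by width (left) and of gaps by length (right) in bp on log axes, with Δasf1 in orange, the wild type in blue, replicate 1 solid and replicate 2 dashed. Wild-type replicate 2 (median 1408 bp) lies to the right in width and Δasf1 replicate 2 (median 5151 bp) to the right in spacing.

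Most Δasf1 peaks overlapped a wild-type peak of the same replicate number. In replicate number 1, 78.5% of the 6358 Δasf1 peaks overlapped a wild-type peak by 1 bp or more, and 82.3% of the 6367 wild-type peaks overlapped a Δasf1 peak. In replicate number 2, 84.2% of the Δasf1 peaks overlapped a wild-type peak, but 52.8% of the wild-type peaks overlapped a Δasf1 peak. By length, 62.4% and 69.8% of the Δasf1 cover lay inside wild-type peaks of the same number, and 72.9% and 33.0% of the wild-type cover lay inside Δasf1 peaks. Of Δasf1 replicate 1, 37.2% of the covered length lay in Δasf1 replicate 2, while 62.4% lay in wild-type replicate 1 and 71.8% in wild-type replicate 2. Of Δasf1 replicate 2, 61.4% lay in Δasf1 replicate 1, while 54.7% lay in wild-type replicate 1. Wild-type replicate 1 had 72.9% of its covered length in Δasf1 replicate 1 and 38.7% in Δasf1 replicate 2, against 74.9% in wild-type replicate 2. Libraries of the same strain were thus not always the closest. The shares by number and by length also follow the size of the list that is overlapped. The lists covered 24.3% and 14.7% of the genome in Δasf1, against 20.8% and 31.2% in the wild type. An overlap of 1 bp is met more easily than that, and the share for randomly placed peaks was not computed.

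Strong peaks were shared more often than weak ones. Among the 25% of Δasf1 peaks with the highest −log10 q, 90.4% in replicate number 1 and 92.0% in replicate number 2 overlapped a wild-type peak, and among the weakest 25% the shares were 59.7% and 74.5%. Of wild-type peaks, 92.0% and 68.4% of the strongest 25% and 65.3% and 33.0% of the weakest 25% overlapped a Δasf1 peak. Peaks without a partner were narrower, with a median width of 755 bp and 836 bp in Δasf1, against 674 bp and 1090.5 bp in the wild type. Peaks with a partner had medians of 1279 bp and 1109.5 bp in Δasf1, against 1113 bp and 1850 bp in the wild type. A wide peak meets another by 1 bp more easily. Width was not held equal, so strength and width were not told apart. Where exactly 1 peak met exactly 1 peak (4340 pairs in replicate number 1, 2935 in replicate number 2), the Δasf1 peak was 1.03 times as wide as its wild-type partner in the median pair of replicate number 1 and 0.736 times as wide in replicate number 2. The Δasf1 peak was the wider one in 58.4% of pairs in replicate number 1 and in 26.5% in replicate number 2. Both ends lay within 200 bp of the partner's ends in 42.8% and 22.8% of pairs.

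Of the genome, 6.0% was under an H3 peak in all 4 lists and 57.0% in none. Between these lay 16.6% under a peak in 1 list, 10.8% in 2 and 9.7% in 3. The regions that all 4 lists left free were not spread evenly, as described further on.

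All 7 chromosomes behaved alike in each pair. The covered share of a chromosome was 22.0% to 27.0% in Δasf1 replicate 1 and 11.8% to 17.5% in Δasf1 replicate 2, against 19.2% to 22.8% and 28.7% to 33.2% in wild-type replicates 1 and 2. Δasf1 over wild type was above 1 on 7 of 7 chromosomes in replicate number 1 (1.07 to 1.23) and on 0 of 7 in replicate number 2 (0.408 to 0.527). The strain difference in covered share was thus a property of the whole list in each pair and had opposite directions in the 2 pairs.

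To compare chromosomes across lists of different size, each chromosome's share was divided by the share of the whole genome in the same library. Chromosome 2 had 1.11 and 1.19 times the genome's share in Δasf1, against 1.09 and 1.07 times in the wild type. Chromosome 6 had 0.906 and 0.801 times in Δasf1, against 0.934 and 0.929 times in the wild type. Chromosome 3 had 0.999 and 1.01 times in Δasf1, against 1.10 and 1.03 times in the wild type. The strains did not overlap on 5 of the 7 chromosomes (71.4%), namely 2 and 7, where Δasf1 was higher, and 3, 4 and 6, where it was lower. Each had the smallest possible exact permutation p of 0.333, or 0.467 after Benjamini-Hochberg adjustment over 7 chromosomes. The differences were small: chromosome 2 was higher in Δasf1 by 0.073 and chromosome 6 lower, with a difference of −0.078. Without the segment from 0.6 Mb to 1.3 Mb, chromosome 2 gave a difference of −0.011.

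**Figure D3:**
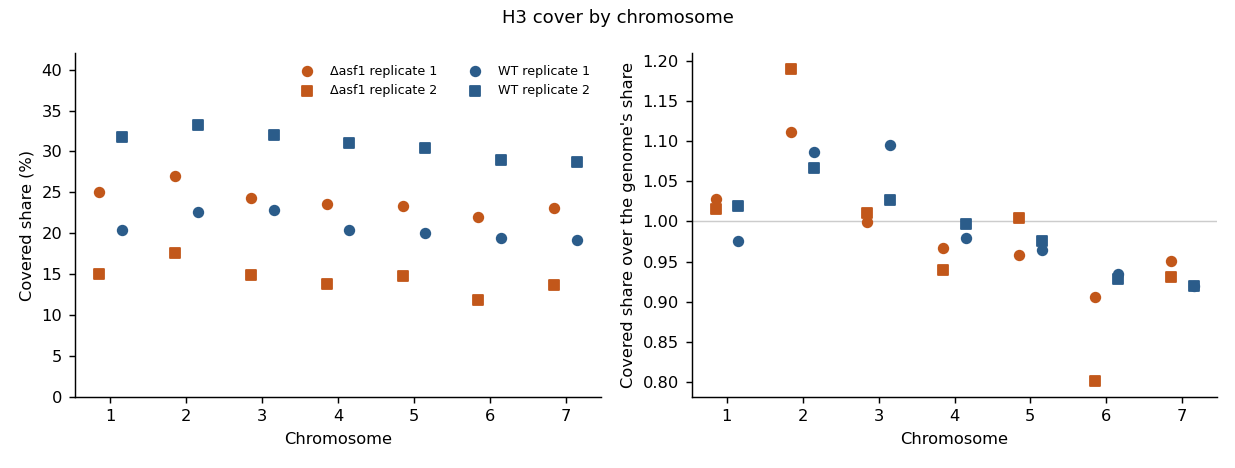
Left, share of each of the 7 chromosomes under H3 peaks in percent; right, the same share divided by that of the whole genome in the same library. Δasf1 (orange) stands left of the wild type (blue), circles are replicate 1 and squares replicate 2; on the right, chromosome 2 is highest in Δasf1 (1.11 and 1.19) and chromosome 6 lowest (0.906 and 0.801).

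At a finer scale the 7 chromosomes were divided into 394 bins of 100 kb. A median bin held 16 and 11 peaks in Δasf1 replicates 1 and 2 and 16 and 17 in the wild-type replicates. Its covered share was 24.5% and 14.3% in Δasf1, against 20.9% and 31.5% in the wild type. Bins varied from 3.59% to 54.3% in Δasf1 replicate 1 and from 1.34% to 52.4% in Δasf1 replicate 2, leaving out the bin of the rRNA genes. In the wild type they varied from 1.88% to 38.2% and from 5.65% to 50.7%. Across bins the landscapes resembled each other. Pearson's r was 0.737 between Δasf1 and wild type of replicate number 1 and 0.573 in replicate number 2, and 0.681 between the Δasf1 replicates and 0.736 between the wild-type replicates (n = 394 bins, Spearman's rho 0.691, 0.523, 0.610 and 0.650). These are descriptions across neighboring bins of the same libraries, not tests.

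Taken bin by bin, Δasf1 was above the wild type in 303 of 394 bins in replicate number 1 and in 4 of 394 bins in replicate number 2, which follows the totals of the lists. The shares were therefore centered on each library's mean over bins before the strains were compared with limma. This linear model shares the estimate of spread between bins. Here the spread came in effect from the trend over all 394 bins, and a bin's own spread between replicates hardly entered. Neighboring bins of the same libraries thus stood in for replicates, and small limma p-values do not rest on more than 2 libraries per strain. Of 394 bins, 4 were higher in Δasf1 at an adjusted p under 0.05 (1.02% of bins) and 0 were higher in the wild type (0% of bins). At an unadjusted p under 0.05 there were 14 bins higher in Δasf1 and 11 higher in the wild type. Without centering, limma called 0 bins and no bin passed an unadjusted p of 0.05.

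All 4 called bins lay side by side or nearly so on chromosome 2, in the segment that the study describes as duplicated, apart from a stretch inside it, in Δasf1. In the bin chr2:1100001-1200000 the covered share was 34.3% and 38.8% in Δasf1, against 16.8% and 19.3% in the wild type. Both Δasf1 libraries were above both wild-type libraries, and the centered difference was 24.99 percentage points with a standard error of 4.14 (limma, adjusted p = 9.7e-07). In the bin chr2:700001-800000 it was 51.1% and 52.4% in Δasf1, against 28.5% and 41.9% in the wild type, again without overlap (23.1 ± 6.28 points, limma adjusted p = 0.0252). The call of this bin was lost with a replicate block (limma adjusted p = 0.229), and its adjusted p ranged between 0.0126 and 0.816 over the alternatives. In chr2:900001-1000000 the share was 42.9% and 23.7% in Δasf1, against 13.0% and 24.2% in the wild type (21.1 ± 3.98 points, limma adjusted p = 2.71e-05). In chr2:1000001-1100000 it was 54.3% and 25.9% in Δasf1, against 19.0% and 32.9% in the wild type (20.6 ± 4.86 points, limma adjusted p = 0.00324). The stretch inside the segment for which the study lists no duplicated gene lies in these last 2 bins. In both, Δasf1 replicate 2 was not above wild-type replicate 2 before centering, and the call rests on its lower total. The bin between the called ones, chr2:800001-900000, had 37.99% and 38.8% in Δasf1, against 20.9% and 36.9% in the wild type, and was not called (15.9 ± 4.94 points, limma adjusted p = 0.0917). The size of these differences also depended on single libraries. Leaving out 1 library gave 17.9 to 32.0 points in chr2:1100001-1200000 and 17.6 to 28.5 points in chr2:700001-800000. It gave 16.4 to 25.9 points in chr2:900001-1000000 and 11.2 to 29.99 points in chr2:1000001-1100000. Such fits leave 1 library in a strain, so no count of called bins is given for them.

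The segment from 0.6 Mb to 1.3 Mb stood out within each Δasf1 library. Its 7 bins averaged 1.69 and 2.29 times the cover of all other bins in Δasf1, against 1.04 and 1.06 times in the wild type (exact permutation p = 0.333, the smallest possible). After centering, 6 of the 7 bins were higher in Δasf1 in both replicate numbers. Without centering, 7 of 7 were higher in replicate number 1 and 3 of 7 in replicate number 2. The study's list of duplicated genes has 2 parts, with a stretch of 160.4 kb between them that holds 35 genes of the table and none of the list. The left part was covered to 44.5% and 46.1% in Δasf1, against 24.5% and 38.2% in the wild type. The right part was covered to 40.3% and 39.1% in Δasf1, against 22.5% and 26.2% in the wild type. Both Δasf1 libraries were above both wild-type libraries in either part. In the stretch between them the Δasf1 replicates differed, with 51.0% and 20.4%, against 15.7% and 28.4% in the wild type. Relative to the rest of the genome this stretch had 2.12 and 1.41 times the cover in Δasf1, against 0.755 and 0.913 times in the wild type. More copies of the DNA and more H3 per copy cannot be told apart in peak lists. How the input samples entered the peak calls is not given in the sources used here.

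Outside the segment the bin differences of the 2 replicate numbers were not alike. Across the other 387 bins, the centered difference in replicate number 1 and that in replicate number 2 had a Pearson's r of −0.04 (Spearman's rho −0.07), and the sign was the same in 178 bins (46.0%). The SD of the difference was 4.82 points in replicate number 1 and 5.80 points in replicate number 2. A difference of more than 10 points in the same direction in both numbers was present in 1 bin with Δasf1 higher and in 0 bins with the wild type higher. The 1 bin was chr7:3400001-3500000, with 25.7% and 17.7% in Δasf1, against 10.5% and 23.8% in the wild type (limma, adjusted p = 0.0917). The 5 bins in which Δasf1 was lowest relative to the wild type in both numbers were chr2:4900001-5000000, chr3:3300001-3400000, chr2:6100001-6200000, chr1:5200001-5300000 and chr3:1700001-1800000. Their weaker centered difference ranged from −9.62 to −7.05 points, and limma called none of them at the adjusted threshold. In the first, the covered share was 22.8% and 12.9% in Δasf1, against 28.9% and 39.6% in the wild type.

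**Figure D4:**
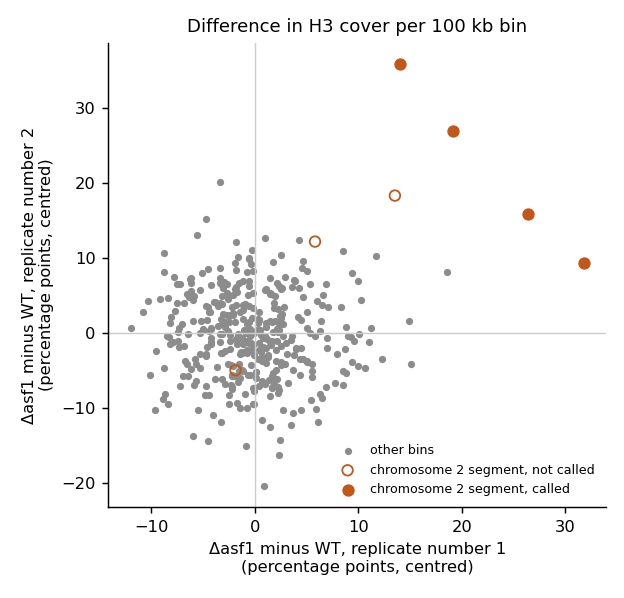
Centered difference in covered share (Δasf1 minus wild type, percentage points) of 394 bins of 100 kb, replicate number 1 on the x axis and replicate number 2 on the y axis. Filled orange points are the 4 called bins, open orange points the other 3 bins of the chromosome 2 segment, and gray points the 387 bins elsewhere, which form a round cloud (r = −0.04).

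The segment's genes showed the same at single gene bodies. The study lists 112 genes in the duplicated parts, of which 106 were found in the segment in the gene table by their older locus tag. On average 50.1% and 52.3% of a gene body lay under H3 peaks in Δasf1, against 30.5% and 42.1% in the wild type. Over the other 10203 protein-coding genes the averages were 32.5% and 19.5% in Δasf1, against 28.4% and 40.4% in the wild type. Δasf1 was above the wild type in both replicate numbers for 43 of the 106 genes (40.6%), against 6.97% of the other protein-coding genes, and below it in both for 3. The gene SMAC4_05560, which encodes a Mediator subunit (Mediator links transcription factors to RNA polymerase II), was covered to 71.0% and 61.3% in Δasf1, against 22.9% and 10.7% in the wild type. SMAC4_05562, for Mcm2, a part of the replicative helicase that also binds histones, was covered to 84.5% and 44.3% in Δasf1, against 73.6% and 94.6% in the wild type. SMAC4_04395, for subunit A of chromatin assembly factor 1, which receives H3 and H4 from ASF1, was covered to 77.1% and 25.8% in Δasf1, against 38.2% and 78.2% in the wild type. SMAC4_07816, annotated as a histone H1-binding protein, was covered to 82.4% and 100% in Δasf1, against 73.4% and 91.4% in the wild type. SMAC4_05567, for Hfi1, a coactivator subunit of the SAGA histone acetyltransferase complex in yeast, was covered to 9.19% and 19.0% in Δasf1, against 8.42% and 50.7% in the wild type. Of these 5 genes, only the Mediator gene had both Δasf1 libraries above both wild-type libraries. It was picked from the segment's genes after their values were seen, so its contrast with the others carries no weight. Other genes of the segment also had this order, such as SMAC4_04376, with 90.1% and 91.0% in Δasf1, against 37.7% and 20.4% in the wild type.

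Across the genome, H3 peaks lay mainly in genes in both strains. In genes, 34.1% and 18.9% of the length was under a peak in Δasf1, against 29.5% and 40.8% in the wild type. Between genes the share was 10.7% and 8.91% in Δasf1, against 8.75% and 17.7% in the wild type. The ratio of genic to intergenic cover was 3.18 and 2.12 in Δasf1, against 3.37 and 2.30 in the wild type, and thus followed the replicate number more than the strain. Within 8558 protein-coding genes of 1 kb or more, cover rose toward the middle of the gene. In the middle, 43.8% and 23.7% of genes were under a peak in Δasf1, against 39.1% and 50.3% in the wild type. The lowest point lay about 350 bp outside the gene ends in replicate 1 of either strain and 450 bp in replicate 2, with 16.7% and 13.4% in Δasf1, against 13.0% and 26.03% in the wild type. The middle was 2.62 and 1.77 times as high as this low point in Δasf1, against 3.02 and 1.93 times in the wild type. The table gives no strand, so both ends of a gene were averaged and promoters were not separated from gene ends.

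**Figure D5:**
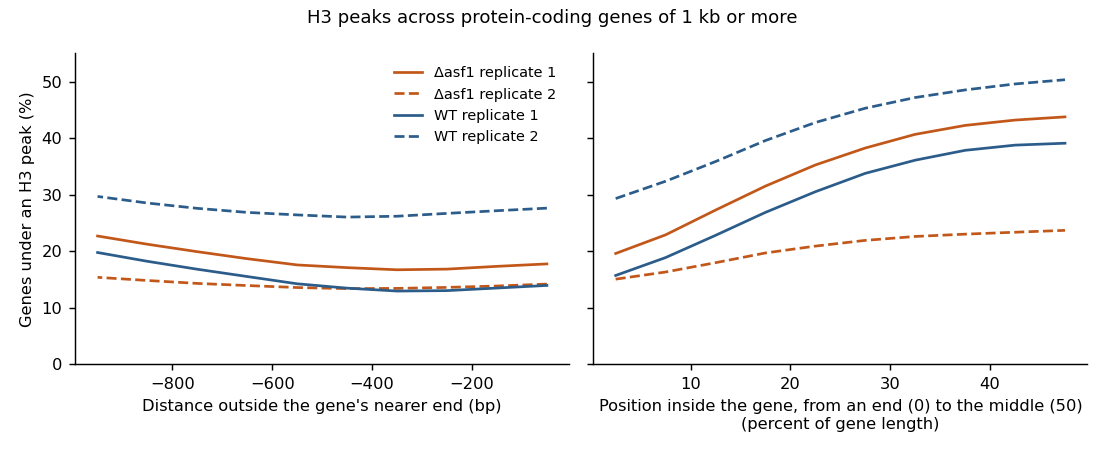
Percent of 8558 protein-coding genes of 1 kb or more under an H3 peak, outside the gene by distance in bp (left) and inside it from an end to the middle in percent of its length (right). Δasf1 is orange, the wild type blue, replicate 1 solid and replicate 2 dashed; all 4 curves are lowest outside the ends and highest in the middle (43.8% and 23.7% in Δasf1, 39.1% and 50.3% in the wild type).

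tRNA genes, which RNA polymerase III transcribes, were nearly free of H3 peaks in both strains. Of 445 tRNA genes, 7 and 14 touched an H3 peak in Δasf1, against 4 and 20 in the wild type. Their mean cover was 1.57% and 3.15% in Δasf1, against 0.899% and 4.49% in the wild type. That was 0.0646 and 0.214 times the genome's share in Δasf1, against 0.0431 and 0.144 times in the wild type. The genome's share includes gene bodies. The share between genes was 10.7% and 8.91% in Δasf1, against 8.75% and 17.7% in the wild type, and tRNA genes were below it in each list. The median tRNA gene was 1284 bp and 2077 bp from the nearest peak in Δasf1, against 1315 bp and 961 bp in the wild type. The median protein-coding gene's midpoint was 297 bp and 1562 bp from a peak in Δasf1, against 472 bp and 59.0 bp in the wild type. By contrast, the 30 rRNA genes of the array at the right end of chromosome 2 were nearly fully covered. Their mean cover was 94.5% and 96.5% in Δasf1, against 95.3% and 92.8% in the wild type. The array's 20 entries of the type miscellaneous RNA (median length 168.5 bp) were covered to 100% in each list. The gene table does not say what they encode. The bin of the array was covered to 74.8% and 77.5% in Δasf1, against 74.7% and 73.8% in the wild type. The 4 lists were alike there. Its genes are repeats, so reads from near-identical copies cannot be assigned to one of them.

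Genes under 0.5 kb were covered less than genes of 1 to 2 kb in every list. The shortest class had a mean cover of 22.7% and 15.5% in Δasf1, against 18.5% and 32.4% in the wild type. Genes of 1 to 2 kb had 34.3% and 23.6% in Δasf1, against 29.99% and 43.5% in the wild type. Genes over 4 kb had 33.4% and 13.9% in Δasf1, against 28.3% and 38.6% in the wild type. The drop among the longest genes was most marked in Δasf1 replicate 2, the list with the fewest peaks.

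Few genes changed from covered to free between the strains in both pairs. A gene was counted for a strain where peaks of that strain took up 50% or more of its body and peaks of the other under 10%. In replicate number 1, 447 of 10804 genes (4.14%) were counted for Δasf1 and 246 (2.28%) for the wild type. In replicate number 2 the counts were 178 (1.65%) and 1729 (16.0%). In both replicate numbers, 26 genes (0.241%) were covered in Δasf1 alone and 70 (0.648%) in the wild type alone. By comparison, 813 genes (7.52%) were covered to 50% or more in all 4 lists and 2439 (22.6%) to under 10% in all 4. The 26 genes lay on 6 chromosomes, 8 of them on chromosome 2 and 3 of these in the duplicated segment. The 70 genes lay on 7 chromosomes and none in the segment. These counts were not tested and moved with the lists used. With the same number of peaks in each list, 53 genes were covered in Δasf1 alone and 76 in the wild type alone. Without 1 library the counts were 56 to 133 in Δasf1 alone and 130 to 640 in the wild type alone, and without Δasf1 replicate 2 the order turned (133 in Δasf1 alone, 130 in the wild type alone).

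The gene for histone H3 itself, SMAC4_02363 on chromosome 5, was among the 26. Its body was covered to 66.7% and 57.1% in Δasf1, against 0% and 0% in the wild type. In Δasf1 replicate 1 a peak at chr5:2835740-2836644 lay over it (905 bp, 1.35-fold), and in Δasf1 replicate 2 the end of a peak at chr5:2832623-2836534 (3912 bp, 1.44-fold). The nearest wild-type peaks, chr5:2834854-2835176 in replicate 1 and chr5:2831064-2835208 in replicate 2, ended 703 bp and 671 bp short of the gene. On its other side all 4 lists had a peak at nearly the same place, 1384 bp and 1411 bp from the gene in Δasf1, against 1392 bp and 1392 bp in the wild type. In wild-type replicate 2 an H3K27me3 peak, called on another library of the same strain, covered 89.7% of the gene, while the other 3 H3K27me3 lists covered 0%.

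The longest of the 25 protein-coding genes covered in Δasf1 alone was SMAC4_12841 on chromosome 2, with 56.6% and 53.5% in Δasf1, against 2.57% and 8.04% in the wild type. SMAC4_03725 and SMAC4_07888 on chromosome 3 had 58.1% and 61.0%, and 65.6% and 73.0%, in Δasf1 replicates 1 and 2, against 0% in both wild-type lists. SMAC4_03725 went against its bin, chr3:1700001-1800000, which was lower in Δasf1 after centering. SMAC4_09272 on chromosome 3 had 64.4% and 94.1% in Δasf1 and 0% in the wild type. SMAC4_05764 and SMAC4_04808 on chromosome 1 and SMAC4_08649 on chromosome 6 had 62.3% to 100% in Δasf1 and 0% in the wild type. SMAC4_13573 on chromosome 3 had 53.4% and 91.1% in Δasf1, against 5.96% and 9.93% in the wild type. Of these 10 longest genes, 2 lay in the duplicated segment. SMAC4_04384, annotated with a cytochrome b5-like heme and steroid binding domain, had 82.6% and 100% in Δasf1 and 0% in both wild-type lists. SMAC4_07819, for the RNA-binding protein HRP1, had 59.2% and 65.2% in Δasf1, against 3.30% and 0% in the wild type. The segment also held SMAC4_13201, an 89-bp tRNA gene covered to 100% in both Δasf1 lists and to 0% in both wild-type lists.

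The longest gene covered in the wild type alone was SMAC4_02753 on chromosome 2, with 8.14% and 0% in Δasf1, against 59.7% and 78.3% in the wild type. SMAC4_00090 on chromosome 4 was the one with the highest cover among the 10 longest in its weaker wild-type library, with 0% in both Δasf1 lists, against 91.7% and 90.3% in the wild type. SMAC4_00748 on chromosome 3 had 0% in both Δasf1 lists, against 92.1% and 53.3% in the wild type. SMAC4_01583 on chromosome 1 had 9.59% and 0% in Δasf1, against 75.3% and 75.1% in the wild type. SMAC4_05114 and SMAC4_02591 on chromosome 2, SMAC4_06230 on chromosome 5, SMAC4_01849 and SMAC4_00950 on chromosome 3 and SMAC4_08999 on chromosome 6 had 0% in both Δasf1 lists, against 55.5% to 85.5% in the wild type. Of all 70, only SMAC4_03232 on chromosome 2 and SMAC4_08689 on chromosome 7 lay in a bin named above. Both had 0% in the Δasf1 lists. The bin of SMAC4_08689, chr7:3400001-3500000, was higher in Δasf1 after centering, so this gene went against its bin. The gene table gives no product for the genes of this paragraph.

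Chromosome ends were covered less than the interior in both strains. In the 13 bins within 100 kb of an end, without the rRNA gene bin, the covered share averaged 10.5% and 6.88% in Δasf1, against 7.47% and 18.7% in the wild type. In the 352 bins more than 300 kb from an end it averaged 25.3% and 15.2% in Δasf1, against 21.6% and 31.9% in the wild type. The lowest bin of the genome was chr4:5000001-5100000, close to an end, with 3.59% and 1.34% in Δasf1, against 1.88% and 5.65% in the wild type.

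Stretches of 10 kb or more with no H3 peak in any of the 4 lists numbered 174 and added up to 2.25 Mb (5.71% of the genome). Of them, 31 lay within 100 kb of an end. These held 23.1% of the stretches' length, while such end zones make up 3.55% of the genome. Genes filled 41.6% of the stretches, against 58.2% of the genome. The longest stretch of each chromosome was chr1:9226319-9247870, chr2:27780-51898, chr3:17803-38675, chr4:32902-64180, chr5:41781-66241, chr6:33386-55576 and chr7:2876617-2891773. Except on chromosome 7 they lay within 100 kb of an end. The longest of all, on chromosome 4, spanned 31279 bp with 9 genes from SMAC4_13588 to SMAC4_09672. H3K27me3 peaks covered 100% of it in wild-type replicate 2 and 11.4% in wild-type replicate 1, against 0.412% and 3.12% in Δasf1 replicates 1 and 2. In the 31 stretches near ends together, H3K27me3 peaks covered 0.480% and 4.47% in Δasf1, against 8.78% and 61.9% in the wild type. In the 143 interior stretches they covered 1.23% and 4.99% in Δasf1, against 2.37% and 12.4% in the wild type. A peak list cannot tell little H3 from an even signal.

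The widest H3 peaks outside the rRNA genes were covered in the other lists to varying degrees. In Δasf1 replicate 1 the widest was chr4:2258693-2272221 (13529 bp, 1.402-fold, with SMAC4_08888), of which 6.42% was covered in Δasf1 replicate 2 and 67.3% and 54.1% in the wild-type lists. The next were chr1:1617198-1627962 (10765 bp) and chr7:1038974-1049185 (10212 bp). In Δasf1 replicate 2 they were chr6:1764976-1774095 (9120 bp), chr2:3749283-3757824 (8542 bp) and chr2:867567-875484 (7918 bp), and the last of these lay in the duplicated segment. In wild-type replicate 1 they were chr5:3866466-3878743 (12278 bp, with 7 genes from SMAC4_08146 to SMAC4_08141), chr4:2605967-2615340 (9374 bp) and chr3:5163563-5172674 (9112 bp). In wild-type replicate 2 they were chr2:4977626-4991063 (13438 bp), chr4:3269799-3282622 (12824 bp) and chr4:2715120-2727835 (12716 bp). The peak chr4:2605967-2615340 was covered to 100% and 48.5% in Δasf1 and to 99.5% in wild-type replicate 2. Of the length of all peaks of 5 kb or more, 65.0% and 81.0% in Δasf1 lay inside wild-type peaks of the same number, and 81.9% and 38.8% in the wild type lay inside Δasf1 peaks.

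The H3 lists were also set beside the H3K27me3 lists of the same strain and number. Of the H3 cover, 66.8% and 62.7% in Δasf1 lay inside H3K27me3 peaks, against 53.3% and 28.1% in the wild type. Of the H3K27me3 cover, 73.4% and 37.1% in Δasf1 lay inside H3 peaks, against 62.9% and 47.9% in the wild type. The strains were apart in the first share but overlapped in the second, where Δasf1 was higher in replicate number 1 and lower in replicate number 2. The first share also follows the size of the H3K27me3 lists. Both Δasf1 lists covered more of the genome than both wild-type lists, as given below. The first share was not adjusted for this. Across 394 bins, Pearson's r between H3 and H3K27me3 cover was 0.889 and 0.703 in Δasf1, against 0.338 and −0.25 in the wild type (Spearman's rho 0.849 and 0.625, against 0.388 and −0.23). In these correlations both Δasf1 pairs were above both wild-type pairs. The points are neighboring bins, and the lists of a strain share chromosome structure, so that no p is given. The H3K27me3 lists covered 22.2% and 24.9% of the genome in Δasf1, against 17.7% and 18.3% in the wild type.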

How the data were processed

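Members, gene lists and tests were chosen with earlier results of these data known. The files are lists of broad peaks. Per the labels, reads were processed with fastp, Bowtie2 and MACS2. The labels name each of the 8 input samples as the control for 1 library. Versions, settings and how the inputs entered the peak calls are not given in the sources used here. Each deposited list gives, per peak, a score (10 times the −log10 q, cut to a whole number), a fold enrichment, a −log10 p and a −log10 q, as the authors' peak caller wrote them. Positions are those of the deposited lists in the assembly Sm_v04_wtN, counted from 1. Peaks were called per library and did not overlap within a list.

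Genes came from RefSeq assembly ASM3387043v1 (10804 genes, of which 10309 protein-coding), whose name differs from that of the lists. Register was checked by moving each list in steps of 100 bp. Peaks fell most into genes within 100 bp of their own position for 28 of 28 pairs of list and chromosome (median 78.6% of length, against 59.9% at 3 to 5 kb away). Positions of genes are not printed. Product names came from the study's gene lists. The asf1 gene has no symbol in the table, so its deletion was not looked at in the lists.

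Covered length, width and gaps were computed with Python 3.11.15, NumPy 2.4.6 and pandas 2.3.3, and figures were drawn with matplotlib 3.10.9. Bins of 100 kb (last bins under 50 kb left out) were fitted with limma 3.58.1 in R 4.3.3 on covered share centered per library, with a mean trend, Benjamini-Hochberg adjustment over 394 bins and a threshold of 0.05. Code was tested on simulated data. Single values were compared by exact permutation tests over 4 libraries (6 assignments). Alternatives were a common −log10 q of 2.05, the 4401 strongest peaks of each list, and joining within 1 kb. Joining could alter only wild-type replicate 1 (shortest gap 953 bp), since no other list had a gap of 1 kb or less. Further alternatives were other bin sizes, leaving out the rRNA genes, the segment or a library, and a replicate block. Named were the 5 highest and 5 lowest bins with the same sign in both replicate numbers, the longest stretch without peaks per chromosome, the 3 widest peaks per list outside the rRNA genes, the 10 longest protein-coding genes covered in one strain alone and those in a named bin, and genes of histones and chromatin factors. The bin chr2:1000001-1100000, the lowest bin, SMAC4_05560 and the 3 stretches of the segment were named after their values were seen.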

Additional observations from a re-analysis of the deposited data

Results flagged for a closer look

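Peak number went in opposite directions for the 2 antibodies. For H3 it was 0.835 times as high in Δasf1 as in the wild type (6358 and 4401 peaks in Δasf1, 6367 and 6525 in the wild type), and both Δasf1 lists were below both wild-type lists. For H3K27me3 it was 1.27 times as high (6090 and 6167 peaks in Δasf1, 4856 and 4764 in the wild type), and both Δasf1 lists were above both. The difference between the antibodies was not tested, and in replicate number 1 the H3 ratio was 0.999.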

How the results depend on the processing

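No group ratio of the H3 lists could pass an exact permutation test with 2 libraries per strain. Leaving out 1 library gave ratios of 0.683 to 0.986 for peak number, 0.567 to 0.937 for covered length, 0.771 to 1.08 for median width, 0.970 to 1.62 for median gap and 0.187 to 1.56 for peaks of 5 kb or more. The last 3 changed direction, width and wide peaks without wild-type replicate 2 and gaps without Δasf1 replicate 2. Same-numbered libraries shared their cutoff, and the main tests did not treat them as pairs. Their centered deviations over bins had r = −0.01 (394 bins). Centering takes out any effect common to a whole library, so this r cannot show that replicate number has no effect. Averaged on the log2 scale within replicate numbers, the 5 ratios were 0.821, 0.743, 0.913, 1.25 and 0.526. With both strains in each number, a replicate block leaves such averages unchanged. They differ from the ratios of group means only in the kind of mean, so they cannot check for an effect of replicate number. With a replicate block limma called 3 bins in place of 4, without chr2:700001-800000. It called 2 bins at 50 kb, of which 1 lay in the segment. All bins called in the following settings lay in it: 2 at 200 kb, 1 on the log2 scale, 3 at a common −log10 q and 3 without the rRNA genes. Without centering it called 0. No setting called a bin with the wild type higher. For replicate number 2, the share of Δasf1 length inside wild-type peaks was 61.0% at a common −log10 q and 59.1% with equal numbers of peaks, against 69.8%. Genes covered in Δasf1 alone numbered 6 at 80% or more against under 10%, 94 at 50% or more against under 50%, 53 with equal numbers of peaks and 56 to 133 without 1 library, against 26. Genes covered in the wild type alone numbered 17, 325, 76 and, without 1 library, 130 to 640, against 70. With fewer libraries such a count can only stay or rise. Chromosome differences changed sign for chromosome 1 at a common −log10 q (−0.00085), chromosome 2 without the segment (−0.011), and chromosome 5 with equal numbers of peaks (−0.0085) and without 1 library (−0.011 to 0.034). The cause of these changes was not tested. Settings for chromosomes and the left-out libraries for genes were chosen after seeing the data. Unknown depth, the peak caller's cutoff and the shortest gap of about 1 kb limit what the lists can show.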
